A study of Anser cygnoides with 12 samples.

Results

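Gene models on chr31, on chr35, on chr37 and on contigs with no assigned chromosome are described here across 12 libraries of goose breast muscle. Members were chosen by their IDs, which place them on these sequences, and by their mean CPM over the 12 libraries, from 1 to below 300. CPM is the count divided by the library total and multiplied by 1000000. Of 23065 models in the table, 1429 met this rule, with 167 on chr31, 221 on chr35, 122 on chr37 and 919 on contigs. The 4 sequence groups were themselves selected because their models were known to vary together in these libraries, so abundance and joint variation are given as descriptions with no test. The IDs come without gene names, 0 of them matched the reference gene table of a Taihu goose assembly, and the assembly behind the IDs was not given in the sources used here. Members are therefore described by sequence and model number, with no gene function and no base coordinates.

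Poly(A)-enriched RNA was sequenced from pectoral tissue of Xingguo grey geese (Anser cygnoides). The high_IMF group held 5 libraries from breast muscle rich in intramuscular fat, the fat stored within a muscle, and the low_IMF group held 7 from breast muscle poor in it. Both groups share breed and tissue, no treatment is given, and the labels state neither age nor whether each library is a separate bird. Library names begin with M in high_IMF and with F in low_IMF, and the labels do not explain the letters.

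Bird genomes hold a few large chromosomes and many small ones, called microchromosomes, which are dense in genes and rich in G and C bases. Assemblies usually number chromosomes by size, and pieces that could not be joined to a chromosome remain as contigs, often because they are rich in GC or repeated sequence. In this table chr31 carried 260 models, chr35 carried 297 and chr37 carried 197, against 798 on chr1 and 974 on chr2. Whether the numbering of this assembly follows size was not tested.

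Total counts ran from 13481727 in F0010 to 18458606 in M0011. The 10 most abundant models took 66.0% of the counts in M001 and 54.4% in M0011, and from 32.1% to 44.7% in the other 10 libraries. In no library was a member among them (0 of 1429), and the highest value of any member in any library was 569 CPM. The tissue label could not be checked against muscle markers, because no ID carries a gene name. In bulk tissue, fewer cells of a type and less RNA per cell cannot be told apart.

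The members were mostly of low to middle abundance. Median mean CPM was 15.0 on chr31, 14.1 on chr35, 14.6 on chr37 and 12.3 on contigs, against 11.6 over all 12744 models of the same window. The lower and upper quartiles were 4.82 and 33.9 CPM on contigs and 6.74 and 30.9 CPM on chr31. Of all members, 587 had a mean below 10 CPM, 762 from 10 to below 100 and 80 from 100 upward. Contigs differed from the chromosomes in how many of their models entered the window. Only 40.5% of 2267 contig models did, while 64.2% of chr31, 74.4% of chr35 and 61.9% of chr37 models did, because 753 contig models had 0 counts in every library and 563 more had a mean below 1 CPM. At the lower edge, the lowest member stood at 1.02 CPM and the highest excluded model of these sequences at 0.992 CPM. At the upper edge, the highest member stood at 286 CPM, and 49 models of these sequences lay at or above 300 CPM, beginning at 301 CPM. Members were rarely missing from a library, as 47 of them (3.29%) had 0 counts in at least 1 library and 3, all on contigs, in at least 5. Over all models of the window the share with 0 counts in some library was 3.99%. The coefficient of variation of a member's CPM over the 12 libraries had a median of 39.1%, against 41.3% over all models of the window.

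The contig members lay on 342 of the 804 contigs in the table. A single member was found on 170 contigs, 2 to 4 members on 123 and 5 or more on 49, and these 49 held 431 of the 919 members. The contig with the most members was ctg2663, with 25.

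To compare libraries, each model's log2 CPM was set against its own mean over the 12 libraries, and the median over all models of the window was set to 0 in each library. A positive deviation therefore means higher than usual relative to the other models, and not necessarily higher in CPM. On this scale the members of all 4 groups went up and down together. On contigs the median deviation was 0.48 in M001, 0.28 in M0011, 0.13 in M0035, 0.10 in F006, 0.09 in F0011, 0.03 in F0013 and 0.01 in F0016. It was -0.10 in F001, -0.21 in both M006 and F009, -0.29 in M0027 and -0.40 in F0010. The high_IMF libraries thus held both the top 3 places and 2 of the bottom 4, and the groups overlapped.

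On chr31 the median deviation ran from -0.33 in F0010 and -0.24 in M0027 to 0.16 in M0011 and 0.33 in M001. The chr35 members spread least, from -0.28 in F0010 to 0.27 in M001, with M0011 at 0.17. The chr37 members stood at 0.39 in M001 and 0.23 in M0011, and at -0.20 in M0027 and -0.26 in F0010. In each of the 4 groups M001 ranked first and M0011 second, M0027 ranked 11th and F0010 last. The share of members with a centred deviation above 0, not above their own mean CPM, was highest in M001 in all 4 groups. It was lowest in F0010 except on chr37, where M0027 and F009 were lower, at 36.1% each. Of the contig members, 73.0% lay above 0 in M001 and 29.4% in F0010. On chr31 these shares were 71.9% and 29.9%, on chr35 69.2% and 28.1%, and on chr37 70.5% and 39.3%.

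**Figure D1:**
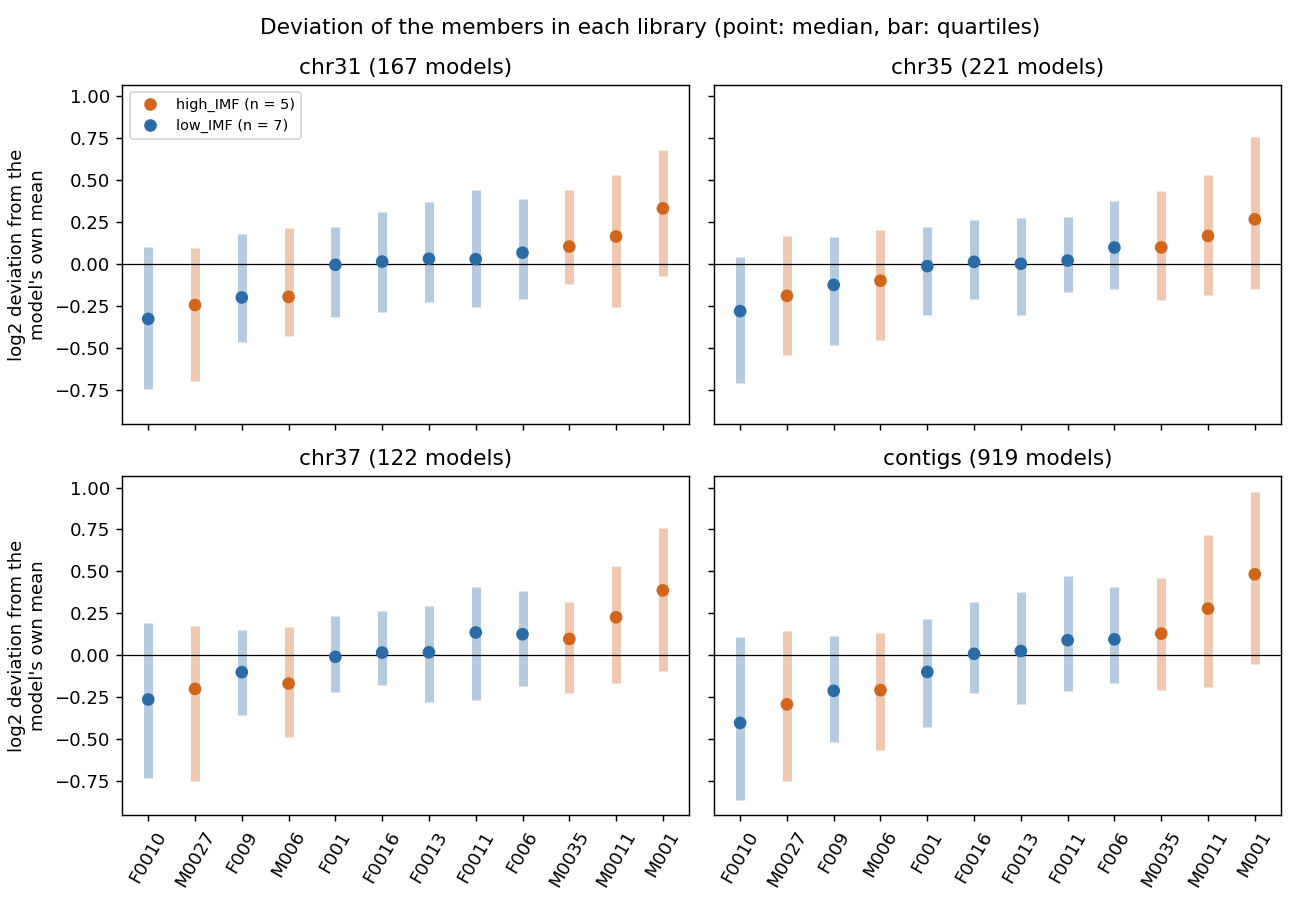
Log2 deviation of the members from their own mean (vertical axis) in each of the 12 libraries (horizontal axis, ordered by the contig median), for chr31, chr35, chr37 and contigs. The median over all models of the window is set to 0 in each library. Points are medians and bars run from the lower to the upper quartile of the members; F0010 is lowest and M001 highest in all 4 panels, from -0.40 to 0.48 on contigs.

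The 4 sets of medians followed each other closely over the libraries. Pearson's r between 2 groups over the 12 libraries ran from 0.972 for chr35 and chr37 to 0.989 for chr37 and contigs, and Spearman's rho from 0.944 to 0.993. Without M001 and F0010, the libraries at the ends, Pearson's r over the other 10 ran from 0.950 to 0.975. These points share the libraries, their depth and the centring, and the members of each group are different models.

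Members did not all take part. The deviations of 706 of 919 contig members (76.8%) correlated positively with the median of the other contig members, 421 with r above 0.5, while 56 had r below -0.5. On chr31 127 of 167 were positive, 60 above 0.5 and 13 below -0.5. On chr35 159 of 221 were positive, 89 above 0.5 and 22 below -0.5, and on chr37 87 of 122, with 50 above 0.5 and 10 below -0.5. The median of this r was 0.46 on contigs and between 0.36 and 0.39 on the 3 chromosomes. M001 lay above F0010 in 680 contig members (74.0%), 124 on chr31 (74.3%), 156 on chr35 (70.6%) and 82 on chr37 (67.2%). Among the 11315 other models of the window, 47.9% lay higher in M001 than in F0010, a share held near the middle by the centring.

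Abundant contig members followed their group more closely than scarce ones. Split into 4 classes by mean CPM, the 230 scarcest contig members had a median r with the group of 0.32, and the 230 most abundant had 0.62. The gap between M001 and F0010 had a median of 0.79 log2 units in the scarcest and 1.13 in the most abundant. On chr35 the median r was 0.21 in the scarcest and 0.52 in the most abundant class. On chr31 and chr37 it did not rise throughout, as the most abundant class stood at 0.40 and 0.38, below the class next to it at 0.46 and 0.56. Counting noise is larger in scarce models, and its part in these differences was not tested.

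The member closest to its group was, in each case, an example of the shared pattern, picked for that likeness. The contig member evm.model.ctg1219.1.g (r = 0.985), the only member on its contig, had 4168 counts in M001, 4152 in M0011 and 1537 in M0027, and 1604 counts in F0010. In CPM it stood at 249.5 in M001, 225 in M0011, 218 in M0035, 134 in M006 and 105 in M0027. The low_IMF libraries held from 119 CPM in F0010 to 270 CPM in F006, with a median of 221 CPM, so M001 was not the highest library in CPM and the groups overlapped. The member closest to its group on chr35, evm.model.chr35.200.g (r = 0.966), stood at 16.8 CPM in M001, 15.7 in M0011, 19.1 in M0035, 7.70 in M006 and 4.79 in M0027. Its low_IMF values ran from 3.63 CPM in F0010 to 14.8 CPM in F0016. On chr31 the closest member was evm.model.chr31.66.g (r = 0.919), with 3.56 CPM in F0010 and 16.9 CPM in M0035. On chr37 it was evm.model.chr37.328.g (r = 0.927), with 6.77 CPM in M0027 and 27.4 CPM in F0013.

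The most abundant member of each group need not follow it. On chr31, evm.model.chr31.393.g went against the other members (r = -0.51). It stood at 87.5 CPM in M001, 198 in M006, 221 in M0011, 222 in M0035 and 453 in M0027, and in low_IMF from 244 CPM in F001 to 495 CPM in F0010. The chr35 member evm.model.chr35.356.g (r = 0.59) held 136 to 264 CPM in high_IMF and 225 to 537 CPM in low_IMF. In plain CPM, M0035 lay within the low_IMF range and the other 4 high_IMF libraries, at 189 CPM or less, below it. On the centred scale M001 (0.14), M0011 (0.13) and M0035 (0.01) lay within the low_IMF range of -0.41 to 0.90. M006 (-0.80) and M0027 (-0.96) lay below it. The chr37 member evm.model.chr37.369.g (r = 0.17) held 156 to 307 CPM in high_IMF and 180 to 269 CPM in low_IMF, with groups that overlapped in CPM. On the centred scale the lowest high_IMF library, M0011, stood at 0.08 and the highest low_IMF library, F0010, at 0.06. The contig member evm.model.ctg2224.4.g (r = 0.78) held 264 to 419 CPM in high_IMF and 120 to 269 CPM in low_IMF, where F006 at 269 CPM was just above M006 at 264 CPM.

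The chromosomes were not uniform along their length. Members were ordered by model number and divided into 6 blocks of nearly equal size per chromosome, a division chosen after the data were seen. On chr37 the block of numbers 309 to 340 stood at 0.68 in M001 and -0.68 in F0010, and the block of 397 to 425 at 0.65 and -0.62. Between numbers 226 and 261, M001 stood at -0.08 and F0010 at -0.06, and between 262 and 308 at 0.19 and 0.14, so the contrast of these libraries was small or absent there. On chr31 the block of 51 to 86 had the widest gap, with 0.46 in M001 and -0.54 in F0010, and the block of 182 to 338 the narrowest, with 0.12 and -0.19. On chr35 every block had M001 above 0 (0.18 to 0.55) and F0010 below 0 (-0.32 to -0.23). Each block holds 20 to 37 members.

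Neighbours were more alike than distant members. Pairs with consecutive numbers had a mean r of 0.284 on chr31 (95 pairs), 0.275 on chr35 (122 pairs), 0.310 on chr37 (65 pairs) and 0.466 on contigs (361 pairs). Pairs more than 50 numbers apart still had a mean r of 0.0747 on chr31, 0.0613 on chr35 and 0.0718 on chr37. Contig members on different contigs had a mean r of 0.122 over 419405 pairs, and the 2055 pairs on the same contig that were not consecutive had 0.275. Pairs of members from 2 different groups had a mean r from 0.0819 (chr35 and chr37) to 0.107 (chr37 and contigs). Models next to each other may belong to a single gene or take the same reads, which was not tested here, and an r between single sparse models is weak, so these values describe the average of many pairs and no single pair.

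Most contigs with 5 or more members moved the same way. Of the 49, the median deviation was above 0 in M001 for 43 and below 0 in F0010 for 43, and both held for 41. M001 or M0011 was the highest library on 33 contigs, while F0010 was the lowest on 20 and M0027 on 11. The correlation of a contig's medians with those of all other contig members had a median of 0.80, was above 0.5 for 39 contigs and below 0 for 4. On ctg2663 the 25 members stood at 0.79 in M001, 0.49 in M0011, -0.33 in M0027 and -0.53 in F0010 (r = 0.97). On ctg2386, with 5 members, M001 stood at 1.78, M0011 at 1.26 and F0010 at -1.23, but the lowest library was F001 at -1.35 (r = 0.82). The 4 contigs that went the other way were ctg2398 (r = -0.74), ctg2067 (r = -0.66), ctg357 (r = -0.45) and ctg2198 (r = -0.26). On ctg2398, M001 stood at -0.35, F0010 at 0.26 and M0027 at 0.42. These contigs were picked out after their values were seen. Members alone on their contig took part less, with medians of 0.31 in M001 and -0.24 in F0010, against 0.60 and -0.43 for members on contigs with 5 or more.

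**Figure D2:**
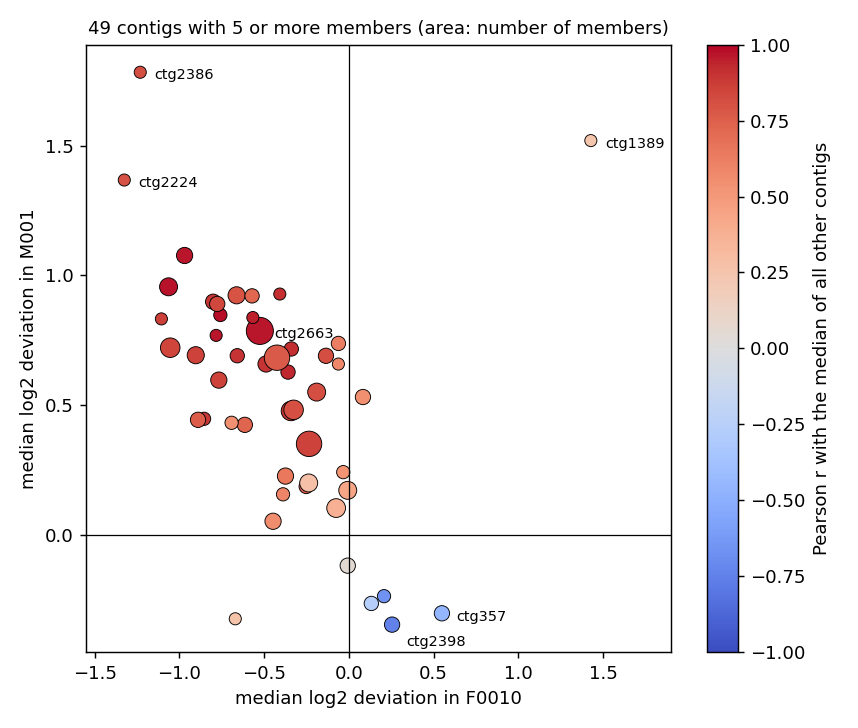
Median log2 deviation of the members of each of 49 contigs in F0010 (horizontal axis) and in M001 (vertical axis). Each circle is a contig, its area follows its number of members and its colour gives Pearson's r with the median of all other contig members; 41 contigs lie at the upper left, above 0 in M001 and below 0 in F0010.

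A different pattern was found on ctg1389. Its 5 members rose and fell almost as one (mean pairwise r = 0.995), and together they held 11 counts in F001, 7 in M0027 and 10 in M0035. In the other 9 libraries they held from 93 counts in M0011 to 339 in F0013, and their summed CPM ran from 5.04 in M0011 to 21.5 in F0010. The 3 libraries with few counts come from both groups. The 5 models had nearly the same count in each library, for example 62 to 74 each in F0013, and reads of models that share sequence cannot be told apart here. In edgeR their log2 fold changes, high_IMF over low_IMF, ran from -1.02 to -0.84 and none passed (adjusted p = 0.410 to 0.469).

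Set beside all sequences of the table, the 4 groups were among the more joint ones but did not stand alone. Over 41 sets of models (the 39 chromosomes, all contigs as 1 set, and models named newGene, whose IDs carry no position), the mean r between 2 models of a set had a median of 0.0213. It was 0.123 on contigs (rank 1), 0.0919 on chr31 (rank 4), 0.0869 on chr37 (rank 5) and 0.0685 on chr35 (rank 6). Ranks 2 and 3 were held by chr38 (0.117, 41 models) and chr23 (0.0921), and on chr23 F0010 was the highest library and F001 the lowest. The range of the median over the libraries was 0.89 log2 units on contigs, 0.66 on chr31, 0.65 on chr37 and 0.55 on chr35, while chr39 had 1.08 over 21 models and the other sequence groups a median of 0.29.

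Chromosomes were also grouped by number, with limits chosen after the data were seen. On the 11 other chromosomes numbered 26 to 39, M001 stood above 0 on 10 and F0010 below 0 on 11. On the 17 chromosomes numbered 1 to 17, M001 stood above 0 on 0 and F0010 below 0 on 1. The 8 chromosomes numbered 18 to 25 were mixed, with M001 above 0 on 4 and F0010 below 0 on 6. The median over all models is 0 by construction, so sequences that rise in a library must be offset by others that fall. No test was made of the difference between the 4 groups and the other sequences.

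**Figure D3:**
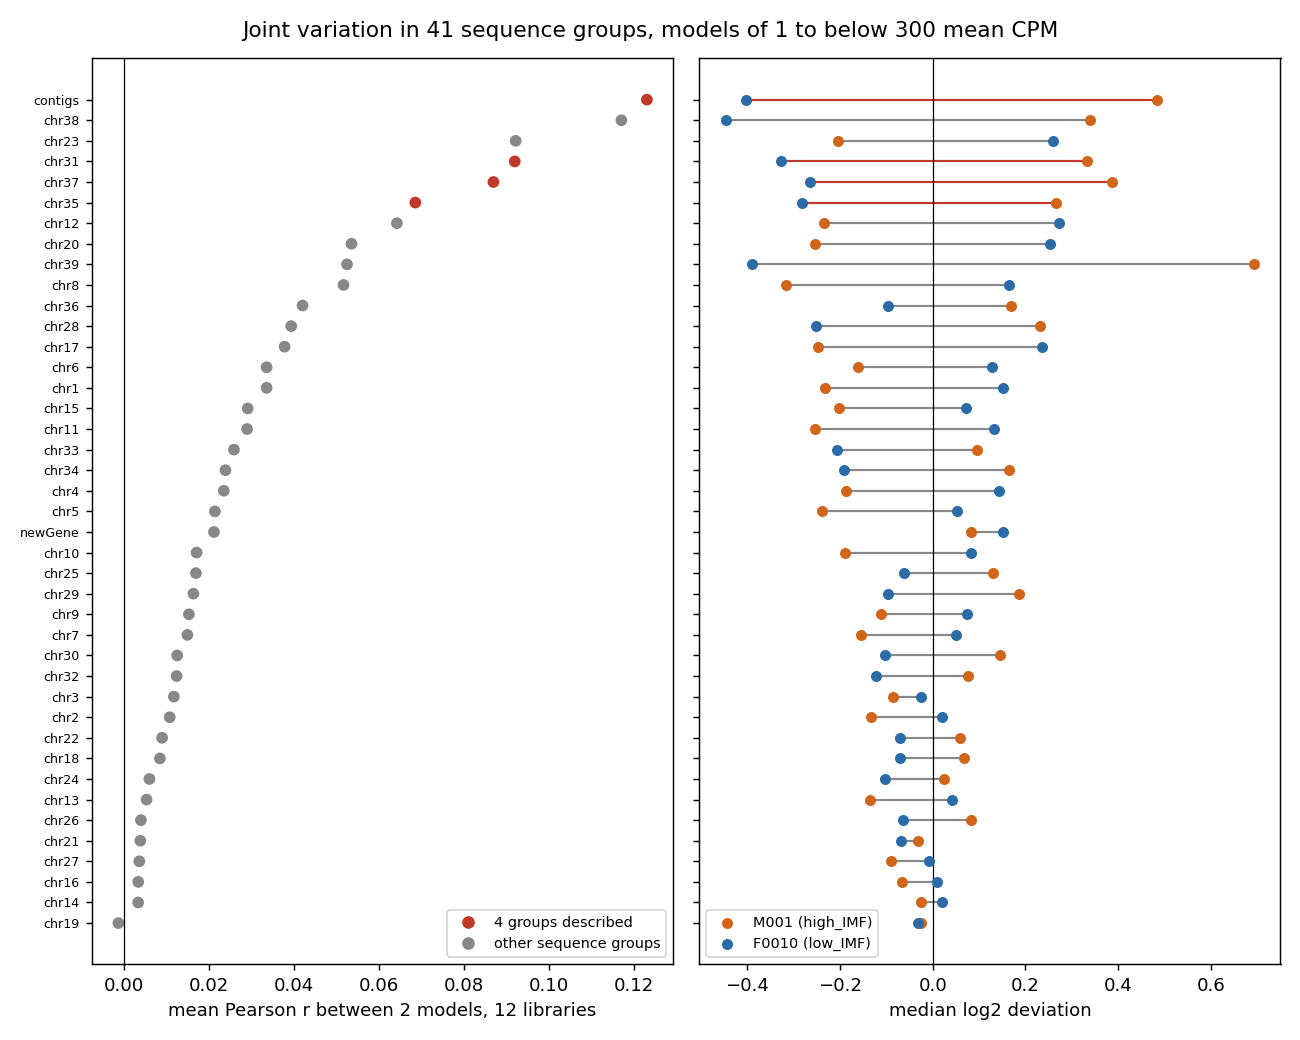
Left, mean Pearson's r between pairs of models over the 12 libraries for 41 sequence groups (vertical axis); right, median log2 deviation of each group in M001 and F0010. The 4 groups described (red) lie within the top 6 on the left, with contigs at 0.123, and on the right have M001 above 0 and F0010 below 0, as do chr38, chr39 and several other chromosomes.

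The link to dominance was weaker without a pair of libraries. Dominance was taken as the share of counts in the 10 most abundant models of a library. Over the 12 libraries this share correlated with the median deviation at r = 0.70 (Spearman's rho 0.63) on chr31, 0.73 (0.69) on chr35, 0.75 (0.62) on chr37 and 0.74 (0.66) on contigs. M001 and M0011 lie farthest from the median share and stand apart from the rest. They also have the highest median deviations in all 4 groups, so a weaker link without them largely follows from that choice. Without them, r over the other 10 libraries was 0.22 (rho 0.36) on chr31, 0.34 (0.45) on chr35, 0.27 (0.33) on chr37 and 0.20 (0.42) on contigs. Within the 7 low_IMF libraries r was 0.30 (rho 0.36), 0.40 (0.61), 0.40 (0.43) and 0.26 (0.50) in the same order. With the share of the single most abundant model instead, r was 0.59 to 0.66 (rho 0.38 to 0.45) over the 12 libraries. Without M001 and M0011 it was -0.10 to -0.0038 (rho -0.07 to 0.05), and within low_IMF 0.12 to 0.25 (rho 0.39 to 0.68). With the 50 most abundant models, r without M001 and M0011 was 0.19 to 0.32 (rho 0.41 to 0.54). The link left without these libraries thus depended on the measure. F0010, lowest in all 4 groups, had a share of 37.0% in its 10 most abundant models, close to F009 at 37.8%, F0016 at 38.8% and M0027 at 39.5%. F0013 had the lowest share, 32.1%, and medians between 0.00 and 0.03. Among the 10 libraries without M001 and M0011, the members thus ranged from -0.40 to 0.13 on contigs at shares that covered 32.1% to 44.7%.

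**Figure D4:**
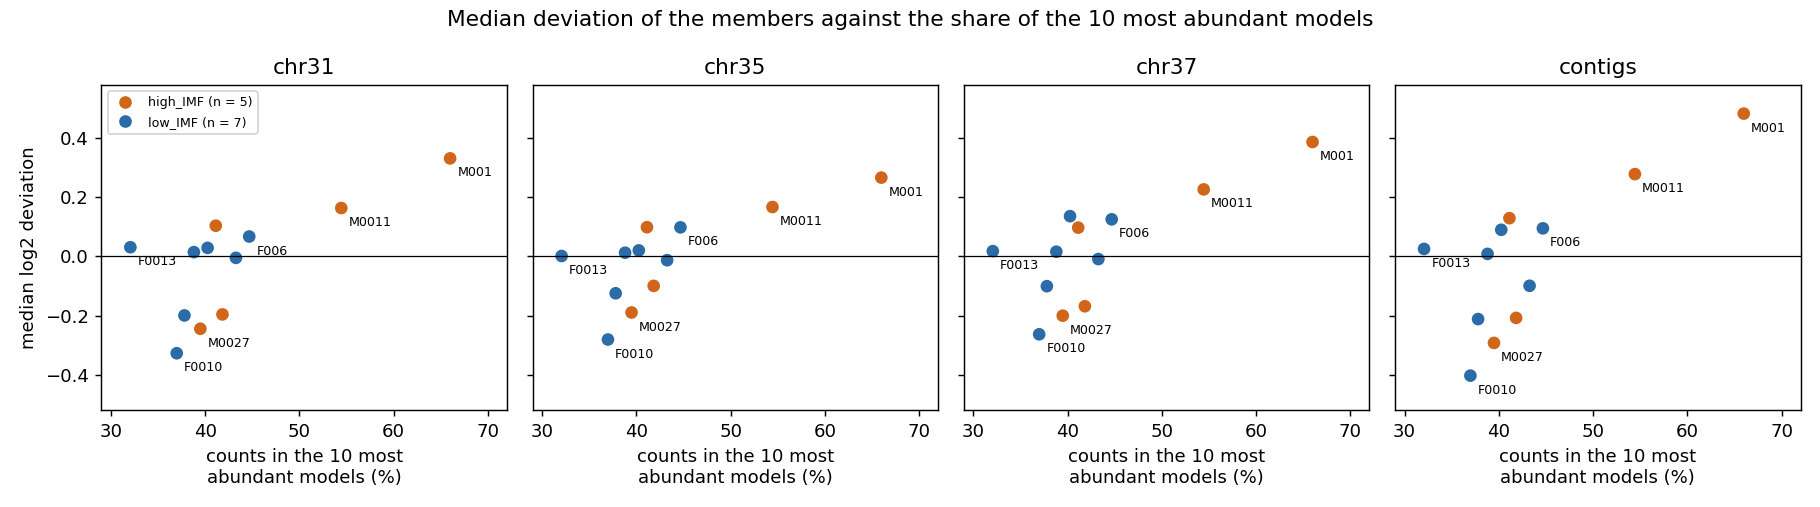
Median log2 deviation of the members (vertical axis) against the share of counts in the 10 most abundant models (horizontal axis, percent) for the 4 sequence groups, 1 point per library. M001 at 66.0% and M0011 at 54.4% lie at the upper right, and the other 10 libraries have r from 0.20 to 0.34 (rho 0.33 to 0.45).

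Single members gave the same picture. With all 12 libraries, 652 of 919 contig members (70.9%) correlated positively with the share, as did 113 of 167 on chr31 (67.7%), 153 of 221 on chr35 (69.2%) and 86 of 122 on chr37 (70.5%). Without M001 and M0011 the percentages were 60.9% on contigs, 58.7% on chr31, 62.4% on chr35 and 58.2% on chr37. Among the 11315 other models of the window they were 47.6% and 50.7%, a pool of sequences with opposite signs. With all 12 libraries, the median deviation correlated positively with the share on 10 of the 11 other chromosomes numbered 26 to 39. It did so on 3 of the 8 numbered 18 to 25 and on 0 of the 17 numbered 1 to 17. As r was 0.88 on chr39 and 0.80 on chr29, the link was not particular to the 4 groups. Library depth also moved with the medians, with r from 0.45 to 0.50 (rho 0.38 to 0.41) over the 12 libraries and from 0.62 to 0.68 (rho 0.29 to 0.39) within the 7 low_IMF libraries, and F0010 and M0027 had the lowest totals. Its part in the result was not tested.

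In plain CPM, without the centring, M001 was the lowest library in all 4 groups and F0013 the highest. The 167 chr31 members summed to 2922 CPM in M001 and 3794 CPM in M0011, the lowest of all libraries, and to 6532 CPM in F0013. High_IMF libraries held 4285 ± 917 CPM (SD, n = 5) and low_IMF libraries 5481 ± 534 CPM (SD, n = 7), with overlapping ranges. The contig members summed to 20614 CPM in M001, the lowest library, and to 33122 CPM in F0013, the highest. Their group values were 24123 ± 2866 CPM (SD, n = 5) for high_IMF against 27680.3 ± 3585 CPM (SD, n = 7) for low_IMF, with overlapping ranges. Per 1000000 counts outside the 10 most abundant models, the contig members came to 60598 in M001 and 53251 in M0011, above all other libraries, and to 36056 in F0010. On that scale chr31 stood at 8590.1 in M001, within the low_IMF range of 7612 to 9662, and chr37 at 5872, within the low_IMF range of 4263 to 5953. The place of M001 above all other libraries thus did not hold for the summed counts of chr31 and chr37.

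Between high_IMF and low_IMF the medians of the 4 groups differed less than single libraries did. The contig median was 0.08 ± 0.33 in high_IMF (SD, n = 5) against -0.07 ± 0.18 in low_IMF (SD, n = 7), which is 0.15 apart. The differences were 0.09 on chr31, 0.09 on chr35 and 0.08 on chr37, with SDs of 0.19 to 0.25 in high_IMF and 0.12 to 0.15 in low_IMF. On the other sequences the difference ran from -0.10 on chr8 to 0.24 on chr39, and chr28 at 0.16 was also above contigs. In the 4 groups single libraries moved the differences both ways, and leaving out M001 lowered them most. Without M001 the differences were 0.06 on contigs, 0.02 on chr31, 0.02 on chr35 and -0.0012 on chr37. In the same order they were 0.08, 0.04, 0.05 and 0.05 without F0010, and 0.24, 0.17, 0.15 and 0.14 without M0027. Without M001 and M0011 all 4 had the opposite sign, at -0.04 on contigs, -0.06 on chr31, -0.02 on chr35 and -0.08 on chr37. Both libraries are high_IMF and had the highest medians in each group, so leaving them out was bound to lower the differences.

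Single members were tested with edgeR's quasi-likelihood test over all 14031 models that passed its count filter, with Benjamini-Hochberg adjustment. Library totals were scaled by TMM factors, at 0.499 in M001, 0.682 in M0011 and 1.01 to 1.36 in the other libraries. CPM values here carry no such scaling, so fold changes can differ from ratios of CPM. Over all models 18.0% passed an adjusted p of 0.05, 8.47% higher and 9.53% lower in high_IMF. Of the members 1427 were tested, and 174 rose and 109 fell. On contigs 112 of 917 tested members (12.2%) were higher and 75 (8.18%) lower. On chr31 24 of 167 (14.4%) were higher and 11 (6.59%) lower, and on chr35 29 of 221 (13.1%) were higher and 13 (5.88%) lower. On chr37 9 of 122 (7.38%) were higher and 10 (8.20%) lower. The share called in either direction was 20.4% on contigs, 21.0% on chr31, 19.0% on chr35 and 15.6% on chr37, all near the 18.0% of the background. The share called higher was above the background on contigs, chr31 and chr35 and below it on chr37. With median-ratio scaling chr37 had 12 higher (9.84%) and 7 lower (5.74%), against 9.45% higher and 8.85% lower over all models, so the share called higher on chr37 was below the background under one scaling and slightly above it under the other. The median log2 fold change was 0.14 on contigs, 0.04 on chr31, 0.09 on chr35 and 0.07 on chr37, against -0.02 over all models tested.

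Fewer members were called higher without the libraries of high dominance, while the number called lower changed less. Without M001 and M0011, 10.8% of all models passed, 4.07% higher and 6.71% lower. On contigs 29 members (3.16%) were then higher and 65 (7.08%) lower. On chr31 10 were higher (5.99%) and 10 lower (5.99%), and on chr35 10 were higher (4.52%) and 13 lower (5.88%). The other models of the window had 4.54% higher and 7.42% lower, so the share called higher on chr35 was near the background. On chr37 0 were higher and 10 lower (8.20%), where edgeR gave 34 of 122 members an unadjusted p under 0.05 in either direction. Over all models edgeR gave 4019 of 14656 an unadjusted p under 0.05. Of the 112 contig members called higher with all libraries, 27 were still called, and of the 75 called lower, 50. Of the 283 members called with all libraries, 121 were called in both fits. None of these changed sign, but the fits share all libraries except M001 and M0011, so a change was hardly possible. The median log2 fold changes were then -0.02 on contigs, -0.07 on chr31, 0.01 on chr35 and -0.07 on chr37. Leaving out M001 and M0011 removed the 2 libraries of highest dominance and also made the high_IMF group smaller. In both libraries the members stood highest, so fewer higher calls without them can follow from that choice. The share called over all models fell as well, from 18.0% to 10.8%. With a single high_IMF library left out, contig members called higher numbered 143 without M006 (8.92% over all models) and 132 without M0027 (8.17%). They numbered 88 without M0035 (6.52%), 65 without M001 (6.44%) and 53 without M0011 (5.07%). Without M001 and M0011 dominance and group size changed together, and their parts in these calls were not tested.

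**Figure D5:**
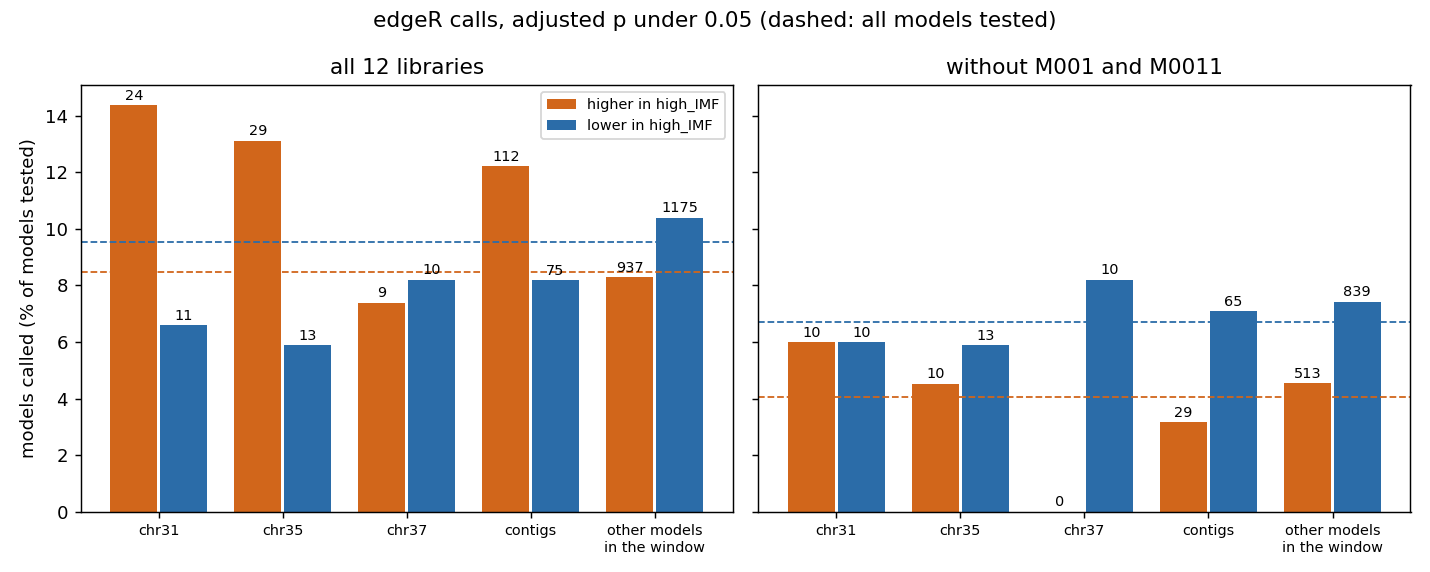
Share of tested models called higher (orange) and lower (blue) in high_IMF by edgeR at an adjusted p under 0.05 (vertical axis, percent), with the number of models on each bar and dashed lines for all models tested. With all 12 libraries contigs have 112 higher and 75 lower; without M001 and M0011 they have 29 and 65.

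Single libraries also moved these counts by more than 1.5 times. Without M0011, 111 contig members, 21 on chr31 and 21 on chr35 were called, with 11.9% called over all models. The contig members called higher fell to 53 without M0011, where the background was 5.07%, and to 65 without M001, where it was 6.44%. Without F0011 chr31 had 23 calls, against 35 with all libraries, with a background of 13.9%. Without M0035 chr37 had 11 calls, against 19, with a background of 13.7%.

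Members called higher with all libraries had, at the median, a higher r with their group than those called lower. On contigs the r with the group had a median of 0.62 in the 112 higher members, 0.02 in the 75 lower ones and 0.48 in the 730 not called. An r above 0.5 was found in 73 of the 112 higher members (65.2%) and in 348 of those not called (47.7%). On chr31 the medians were 0.46, 0.14 and 0.37, and r was above 0.5 in 10 of 24 higher members (41.7%) and in 37.9% of those not called. On chr35 the medians were 0.53, -0.14 and 0.36, and on chr37 0.52, 0.09 and 0.45. Both values rest on the same 12 libraries, so they are a description. The higher members were also more abundant, with a median of 32.4 CPM against 13.1 CPM in the lower ones. The 187 called contig members lay on 125 contigs, 68 with higher members only, 44 with lower members only and 13 with both. The most calls on a contig were 6 of 22 members on ctg1685, 4 higher and 2 lower. On ctg1127 all 5 called members of 11 were lower, and on ctg2663 all 4 called members of 25 and on ctg11 all 4 of 10 were higher. Over all models tested 18.0% were called, 8.47% higher and 9.53% lower, and the share called on ctg2663 lay below that 18.0%. These contigs were chosen after their values were seen.

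The 2 highest fold changes among called members rested on unlike data. The contig member evm.model.ctg1146.4.g held 3213 counts in M006, 255 in M0027, 243 in M0035, 71 in M0011 and 12 in M001. Its low_IMF counts ran from 36 in F0010 to 245 in F0013. A single library, M006, thus stood far above the rest and the groups overlapped. The log2 fold change was 3.21 (SE 0.83, edgeR adjusted p = 0.0167), and without M006 it was 1.19 (edgeR adjusted p = 0.141). In limma-voom it was 1.94 (adjusted p = 0.139). The scarce chr35 member evm.model.chr35.201.g, next to evm.model.chr35.200.g by number, held 10 counts in M001, 42 in M0011, 35 in M0027, 45 in M0035 and 36 in M006. In low_IMF it held from 0 counts in F006 to 15 in F009. In counts, M001 thus lay within the low_IMF range and the other 4 high_IMF libraries above it. On the centred scale this member stood at 0.82 in M001, above its highest low_IMF value of 0.18 in F009. Its log2 fold change was 2.60 (SE 0.61, edgeR adjusted p = 0.0106). Its mean was 1.10 CPM, with 2.04 CPM in high_IMF and 0.42 CPM in low_IMF. It thus entered the window from 1 CPM only through the group where it was high, and its fold change is a description. It was not tested under the filter of 1 CPM in 5 libraries.

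On the low side the groups were parted for evm.model.ctg2059.7.g. It held 0 counts in M0035, 7 in M001, 15 in M006, 25 in M0027 and 29 in M0011, and from 106 counts in F006 to 314 in F0011 in low_IMF. In CPM it stood at 0.907 ± 0.733 (SD, n = 5) and 11.7 ± 4.07 (SD, n = 7), and no high_IMF library reached the lowest low_IMF library. In edgeR this was a log2 fold change of -3.19 (SE 0.55, adjusted p = 0.002155). Its high_IMF mean alone lay below the window's limit of 1 CPM, so it entered the window through low_IMF. It was also picked for its low fold change, so that value and the parting of the groups are a description. The contig member evm.model.ctg2384.1.g, alone on its contig, held 9 to 244 counts in high_IMF and 1028 to 2096 counts in 6 low_IMF libraries, but 15 counts in F001. F001 lay within the high_IMF range, and the groups overlapped through this library. Its edgeR log2 fold change was -3.003 (SE 0.85, adjusted p = 0.0258). It did not pass without M0011 (edgeR adjusted p = 0.0643), without M001 and M0011 (edgeR adjusted p = 0.0852) or in limma-voom (adjusted p = 0.133).

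Of the most abundant and most typical members, evm.model.ctg2224.4.g was called. Without TMM scaling, high_IMF libraries held 340.5 ± 63.6 CPM (SD, n = 5) against 226 ± 52.7 CPM (SD, n = 7) for low_IMF. The edgeR log2 fold change of this member was 1.18 (SE 0.29, adjusted p = 0.0133), and it was 0.57 without M001 and M0011 (adjusted p = 0.141). The other 7 did not pass, with edgeR adjusted p from 0.0538 for evm.model.chr37.369.g to 0.958 for evm.model.chr31.393.g. The first passed with median-ratio scaling (edgeR adjusted p = 0.0428), without F0010 (edgeR adjusted p = 0.0429) and in DESeq2 (adjusted p = 0.00602). The log2 fold change of the typical contig member evm.model.ctg1219.1.g was 0.46 (SE 0.34, edgeR adjusted p = 0.369), and it was -0.31 without M001 and M0011. Its unscaled mean was 186 CPM in high_IMF and 212 CPM in low_IMF, so the sign of the fold change went with the scaling.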

How the data were processed

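The deposited table held raw read counts per gene model, whole numbers with no normalization by the authors, in 12 columns that were all used. The submitters' processing notes name HISAT2 and DESeq2, without version or role. Which counting program, build, annotation and strandedness applied is not given in the sources used here, so reads of overlapping, antisense or near-identical models cannot be told apart. Nothing shows that the libraries are separate birds, so a p-value reflects only how these samples vary, which may be technical. The members and lists were chosen with earlier results of these data known.

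Counts were filtered with filterByExpr, scaled by TMM and tested with edgeR 4.0.16 in R 4.3.3 over the whole table, high_IMF against low_IMF, with Benjamini-Hochberg adjustment and a threshold of 0.05, and the procedure was tested on simulated data. Standard errors came from the F statistic. Deviations used log2 CPM with a prior count of 2, for all 12744 models of 1 to below 300 mean CPM. Medians per contig were taken for contigs with at least 5 members. Alternatives were median-ratio scaling, other filters, DESeq2 1.42.0, limma-voom (limma 3.58.1), a replicate block, left-out libraries, other prior counts, centring, window and dominance measures. Named members were the most abundant of each sequence group, the one closest to its group's median, and over all members the 2 highest and 2 lowest fold changes that passed. No pair of the 66 library pairs agreed within sampling noise (lowest chi-square per model 32.6). Total counts bound the precision of scarce models.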

Additional observations from a re-analysis of the deposited data

Results flagged for a closer look

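Dixon's test was applied to 42 sets of values, each the libraries of 1 group, and 3 sets had an extreme library; chance alone flags about 1 in 20. The summed level of the chr37 members was 4044 CPM in F0013, where the next low_IMF library had 3207 CPM. The contig member evm.model.ctg1146.4.g stood at 179 CPM in M006, where the next high_IMF library had 17.4 CPM. The same member stood at 14.3 CPM in F0013, where the next low_IMF library had 6.01 CPM.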

How the results depend on the processing

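With 1 library left out, members called by edgeR numbered 21 to 38 on chr31, 21 to 48 on chr35, 11 to 21 on chr37 and 111 to 203 on contigs, with 53 to 143 contig members higher and 57 to 88 lower. The share over all models moved too. It was 11.9% without M0011, with 5.07% higher, and 13.7% without M0035, while without F006 8.6% were higher and 10.3% lower. Without M006, where 143 contig members were higher and 203 called, 8.92% of all models were higher and 8.72% lower. Without M0027, where 57 contig members were lower and chr37 had 21 calls, 8.17% of all models were higher and 8.57% lower. Without F0010, where 88 contig members were lower, 8.51% of all models were higher and 9.86% lower. Without M001 and M0011 the calls were 20 on chr31, 23 on chr35, 10 on chr37 and 94 on contigs (29 higher). Over all models 10.8% were then called. DESeq2 called 32 on chr37, 15.6% higher and 10.7% lower, against 12.6% and 12.1% over all models. The library numbers 001, 006 and 0011 are shared by both groups, and deviations of like-numbered libraries correlated at 0.0112, -0.151 and 0.131. Whether the numbers pair the samples cannot be told from so few correlations. With the numbers as a replicate block over 6 libraries, edgeR called 0 on chr31, 0 on chr35, 1 on chr37 and 0 on contigs (0 higher, 0 lower). In that edgeR fit 20, 23, 11 and 135 had an unadjusted p under 0.05. Those 6 libraries with no block gave 0, 0, 1 and 2 calls (1 higher, 1 lower), with 38, 37, 17 and 211 at an unadjusted p under 0.05. Over all 13827 models tested the block gave 5 higher and 8 lower calls, with 1751 models at an unadjusted edgeR p under 0.05. Without the block there were 4 higher and 18 lower calls, with 2543 models at an unadjusted p under 0.05. The members tested in these fits numbered 167 on chr31, 220 on chr35, 122 on chr37 and 915 on contigs.

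Fold changes changed sign for 3 named members that were not called. For evm.model.chr31.393.g it was 0.00587 with median-ratio scaling, 0.00588 with DESeq2, 0.0463 without M001 and M0011 and -0.29 to 0.12 with 1 library left out. For evm.model.chr37.328.g it was -0.0113 with limma-voom, -0.38 without M001 and M0011 and -0.0532 to 0.45 with 1 library left out, and for evm.model.ctg1219.1.g -0.31 without M001 and M0011. The mean pairwise r on contigs was 0.203 for members of 10 CPM or more, 0.0899 without M001 and M0011 and 0.0904 without M001 and F0010, a setting chosen after seeing the data. The r with dominance was 0.47 to 0.84 over the 4 groups with 1 library left out. The cause of these shifts was not tested.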
